A study of Danio rerio with 12 samples.

Results

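The question was whether microglia that had lost both mafba and mafbb (DMut) differed from siblings by more, or less, than the sum of what the loss of either gene gave alone. For each gene the departure was the log2 level in DMut, minus that in mafba mutants, minus that in mafbb mutants, plus that in siblings (sib). A departure of 0 means that the DMut difference equals the sum of both single-mutant differences, and a negative departure means a level in DMut below that sum. The members were the genes with 10 or more counts in every one of the 9 mafba, mafbb and sib tubes, 1596 of 35117 gene IDs and of 9519 genes tested. The rule sets no minimum in DMut, and 128 members had under 10 counts in at least 1 DMut tube.

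The series holds 12 tubes, 3 each of DMut, mafba mutant, mafbb mutant and sibling microglia, taken from zebrafish brains at 3 days post fertilization. All fish carried the transgene Tg(mpeg1:DsRedx), which labels macrophages red from the promoter of mpeg1, and each tube held 3 DsRed+ cells picked by hand from the pooled brains of about 10 embryos. Poly(A) RNA was amplified by Smart-seq2, a full-length method for very small inputs that adds no molecular identifiers. The labels do not spell out DMut beyond listing it after both single mutants, and give neither the alleles nor the genotype of the siblings.

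The genes mafba and mafbb are a pair of duplicated zebrafish genes that encode large Maf transcription factors, of the basic leucine zipper family, which act in macrophage differentiation. Duplicated genes can cover for each other, and a pair that does so leaves a small change after either loss and a larger one after both, which is what a negative departure of a gene that needs either factor records. Microglia are the resident macrophages of the brain, and in zebrafish embryos they are known for apolipoprotein E, for clearing apoptotic neurons and for a large lysosomal system.

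Total counts per tube ranged from 10014888 to 17689266. Genes with a count numbered 7808 to 9297 in DMut, 7038 to 10521 in mafba, 5100 to 6141 in mafbb and 7077 to 7665 in sib tubes, so detection was lowest in mafbb, and the spike-in share of counts was highest there, 0.662% to 0.798%, against 0.194% to 0.342% in sib. The transcript of mafbb (ENSDARG00000070542) had counts in only 3 tubes, 17 in DMut replicate 3, 13 in mafba replicate 3 and 5 in sib replicate 3. Its level therefore does not check the genotype labels. Of 11 microglial markers 10 were matched. Their summed share was 0.126% to 0.168% in DMut, 1.31% to 5.53% in mafba, 1.94% to 3.96% in mafbb and 4.43% to 6.38% in sib. Most of the sib sum came from apoeb, with 1239211 counts, followed by ccl34b.1 with 354419. The markers apoeb, apoc1, lgals3bp.1 and p2ry12 were at 0 in all DMut tubes. Of these, p2ry12 had counts in only 2 sib and 2 mafbb tubes. The other matched markers had counts in all 3 DMut tubes, and csf1ra alone had more raw counts in DMut (8506) than in sib (6308). The 5 pan-leukocyte markers made up 0.522% to 0.673% in DMut, 0.344% to 0.602% in mafba, 0.318% to 0.455% in mafbb and 0.293% to 0.391% in sib. The mafba range thus overlapped that of DMut. The 5 matched neutrophil markers made up 0.0122% to 0.0179% in DMut, 0 to 0.00499% in mafba and 0 in mafbb and sib. Most of the DMut sum came from mmp25b, with 4676 counts, against 395 for npsn, 94 for mmp13a, 16 for lyz and 0 for mmp9. The 6 neuronal markers made up 0 to 0.000892% in DMut, 0.00266% to 0.00744% in mafba, 1.86e-05% to 0.0248% in mafbb and 0 to 0.000224% in sib. The 5 matched epidermal and metaphocyte markers summed to 0.00447% to 0.00717% in DMut, 0 in mafba and mafbb and at most 9.32e-05% in sib, and the part of these markers in the results was not tested. In such small pools, fewer cells of a type and less RNA per cell cannot be told apart.

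On the log2 scale, DMut fell below the sum of the single-mutant differences for 11 members. Among them were the microglial genes apoeb, ccl34b.1 and havcr1, the scavenger receptor gene stab1 and the metabolic enzyme genes GPD1 and ME3. One member, ACP5, was higher than the sum. The test was edgeR's quasi-likelihood test with Benjamini-Hochberg adjustment over all genes tested, at an adjusted p under 0.05. These counts are 0.689% of the members lower and 0.0627% higher, against 0.126% and 0.084% of all genes tested. At an unadjusted p under 0.05, 64 members were lower and 37 higher, where the share of all genes tested was 3.83% lower and 9.17% higher. The median departure was -0.23 over the members, with 933 below 0 and 663 above, and 0.31 over all genes tested. With the minimum of 10 counts set in all 12 tubes the median was -0.14. Lifting the minimum in sib, mafba or mafbb in place of DMut gave -0.20, -0.11 and 0.10. Without mafba replicate 2 and mafbb replicate 3 the members' median was -0.002, so its sign is not firm. The median SE of a member's departure, worked back from its test statistic, was 1.24. By that measure a departure of a few fold was not detectable for most members in this design. Labels do not say that the 3 tubes of a genotype came from separate pools of embryos, so the p-values measure the spread between tubes.

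The share called lower depended on which group the rule leaves free. Of the 11 genes called lower, 8 had 0 or 1 count in DMut in total. With the minimum of 10 counts set in all 12 tubes, 1468 genes remained and 3 were called lower (pycard, ccl34b.1 and havcr1) and 1 higher (ACP5). Leaving sib free in place of DMut gave 3 lower and 1 higher among 1590 genes, leaving mafba free gave 3 and 1 among 1567, and leaving mafbb free gave 3 and 5 among 2254. Freeing DMut thus added 8 genes called lower, freeing mafbb added 4 called higher (ARPC1A, si:ch211-288g17.3, SEPTIN8 and PTPN11, all at 0 counts in the 3 mafbb tubes and named after their values were seen), and freeing sib or mafba added 0. Genes at the edge of the rule did not carry the calls: the 18 genes with a lowest count of 8 or 9 had a median departure of 0.12, the 10 members with a lowest count of 10 or 11 had one of 0.20, and 0 genes were called in either set.

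**Figure D1:**
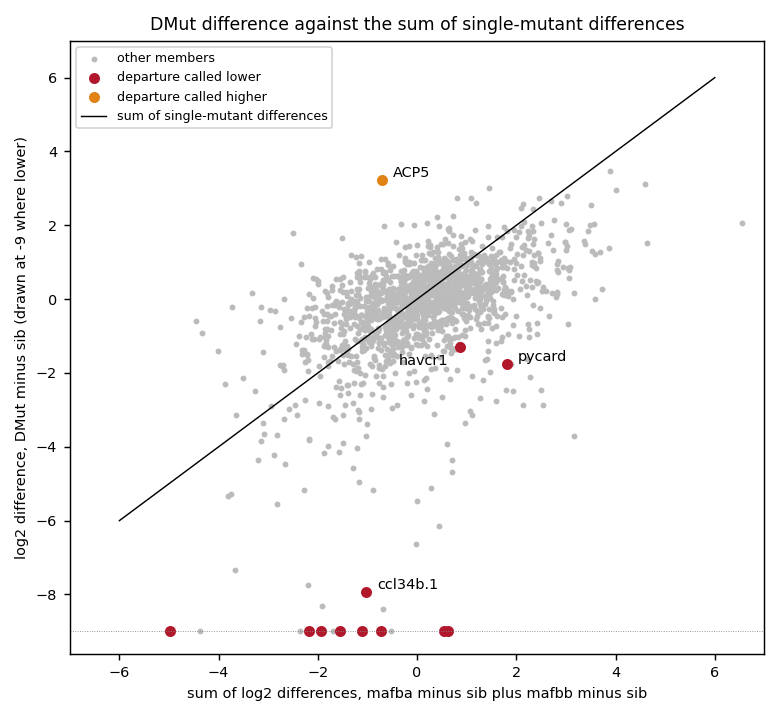
Each point is 1 of the 1596 members. The horizontal axis gives the sum of the log2 differences of mafba and mafbb from sib, the vertical axis the log2 difference of DMut from sib, both from the edgeR fit, and the line marks a departure of 0. The 11 members called lower lie below the line, 8 of them at the edge where differences under -9 are drawn, and ACP5 lies above it. Both axes use the same sib tubes, so the slope of the cloud is no result.

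Apolipoprotein E, the lipid carrier protein that marks zebrafish microglia, gave the deepest loss in counts. Its gene apoeb (ENSDARG00000040295) had 0 counts in all 3 DMut tubes, against 4282, 40525 and 8485 CPM (library-size normalised counts, with TMM factors) in mafba, 21202, 23674 and 7537 CPM in mafbb and 23478, 45757 and 34400 CPM in sib. Each of the other 9 tubes held at least 79859 counts, while DMut had none, so DMut did not overlap with any group. A gene with 0 counts was given a floor of 3 counts over its group, which makes its fold and its departure bounds for counting error only. By that floor apoeb was at least 180303-fold lower in DMut than in mafba, at least 177330-fold lower than in mafbb and at least 350634-fold lower than in sib, and its departure was -16.48 or lower (adjusted p = 0.0334, edgeR). The single mutants stood at -0.96 ± 0.90 (mafba) and -0.98 ± 0.90 (mafbb) from sib on the log2 scale (SE), with adjusted p of 1 and 0.828. On the linear scale the departure was -690 ± 14055 CPM (SE), because each single-mutant mean lay about as far below sib as it lay above 0. The call is not firm: the adjusted p was 0.0525 with spike-in scaling and 0.791 with limma voom, and it passed in 3 of the 12 fits that left out a tube.

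The chemokine gene ccl34b.1 (ENSDARG00000093608), used as a marker of a zebrafish microglial subset, was the called gene most abundant in sib among those that DMut still expressed. It had 31.6, 24.4 and 65.6 CPM in DMut, against 2921, 9888 and 7192 CPM in mafba, 8030, 6641 and 7195 CPM in mafbb and 6432, 13734 and 9669 CPM in sib. Both single mutants overlapped sib, and every DMut tube lay far below all of them. DMut was 164-fold lower than mafba, 180-fold lower than mafbb and 245-fold lower than sib by mean CPM. The departure was -6.91 ± 0.79 (SE, adjusted p = 0.018, edgeR), made of -7.94 ± 0.69 in DMut, -0.58 ± 0.51 in mafba and -0.45 ± 0.51 in mafbb from sib. Its adjusted p was 0.0549 without sib replicate 3 and likewise without mafba replicate 3, 0.0596 without DMut replicate 1 and 0.972 with limma voom.

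Both engulfment receptor genes among the calls were low in DMut, one of them absent. The gene havcr1 (ENSDARG00000040178) encodes a receptor that binds phosphatidylserine on dying cells. It had 420, 811 and 575 CPM in DMut, against 2110, 2315 and 2685 CPM in mafba, 2873, 1025 and 1060 CPM in mafbb and 1949, 1179 and 1272 CPM in sib. Its departure of -2.15 ± 0.47 (SE, adjusted p = 0.0334, edgeR) combined -1.29 ± 0.34 in DMut with 0.69 ± 0.33 in mafba and 0.17 ± 0.33 in mafbb. Part of it therefore came from mafba, whose tubes all lay above every sib tube. The differences of DMut and of mafba from sib did not pass by themselves (adjusted p of 0.0575 and 0.608, edgeR). DMut was called lower than mafba and than mafbb (adjusted p of 0.000835 and 0.0226, edgeR). In mafbb, replicate 1 alone lay above sib, and the other tubes lay below every sib tube. The call passed in 11 of 23 alternative fits, and the adjusted p reached 0.632 with spike-in scaling and 0.932 with DESeq2. The gene stab1 (ENSDARG00000076484) encodes stabilin 1, a scavenger receptor of macrophages that sinusoidal endothelium also uses. In DMut it had 0 counts in all 3 tubes, against 136, 169 and 62.5 CPM in mafba, 139, 133 and 83.0 CPM in mafbb and 41.8, 200 and 56.9 CPM in sib. The single mutants were at the level of sib (0.30 ± 1.23 and 0.25 ± 1.23 on the log2 scale), DMut was at least 1011-fold lower than sib, and the departure was -10.53 or lower (adjusted p = 0.00141, edgeR). The 5 endothelial markers fixed for this work were at 0 in DMut and summed to 0.00375% to 0.00757% in mafba, 0 to 0.0165% in mafbb and 6.21e-05% to 0.00941% in sib; their part in the stab1 result was not tested.

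A stress-induced gene of growth arrest, GADD45B, gave the smallest p, and its paralogue did not follow it. Under the ID ENSDARG00000013576 it had 0 counts in all DMut tubes, against 147, 392 and 290 CPM in mafba, 138, 1036 and 315 CPM in mafbb and 152, 468 and 274 CPM in sib. The single mutants overlapped sib, and DMut was at least 2804-fold lower than mafba, at least 5038-fold lower than mafbb and at least 3026-fold lower than sib. Its departure was -12.19 or lower (adjusted p = 4.5e-11, edgeR), and it passed in all 23 alternative fits, with adjusted p up to 0.0483. The second gene with the symbol GADD45B, ENSDARG00000027744, had 218, 313 and 442 CPM in DMut, 184, 123 and 75.4 CPM in mafba, 432, 351 and 381 CPM in mafbb and 378, 427 and 475 CPM in sib. There the mafba tubes were the low ones, and the departure of 1.49 ± 0.72 did not pass (adjusted p = 0.382). No source used here states how reads were divided between the paralogues.

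The actin regulator MTSS2 (ENSDARG00000087260), a membrane-bending protein, showed the same layout. It had 0 counts in all DMut tubes, against 166, 197 and 102 CPM in mafba, 243, 162 and 23.9 CPM in mafbb and 111, 206 and 255 CPM in sib. The bound on the departure was -10.20 (adjusted p = 3.08e-05, edgeR), DMut was at least 1935-fold lower than sib, and the call passed in all 23 alternative fits. Together with GADD45B and stab1 it made up the 3 genes whose call held in every alternative fit run. All 3 had 0 counts in DMut, so they were members only because the rule left DMut free.

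A pair of enzyme genes that feed carbon between pathways was down to 1 count in DMut. The malic enzyme gene ME3 (ENSDARG00000002305), whose product turns malate to pyruvate in mitochondria, had 0, 0 and 0.107 CPM in DMut, against 131, 64.3 and 120 CPM in mafba, 108, 84.7 and 128 CPM in mafbb and 227, 77.6 and 241 CPM in sib. Its departure was -10.46 ± 1.90 in the fit (SE, adjusted p = 0.00271, edgeR). From the group means, with a counting interval for the single DMut count, it was -10.88 (95% interval -16.18 to -8.40). Without sib replicate 3 the adjusted p was 0.0536, and it was 0.0784 with spike-in scaling. The gene GPD1 (ENSDARG00000043701) encodes the cytosolic glycerol-3-phosphate dehydrogenase, which links glycolysis to lipid synthesis. It had 0, 0.118 and 0 CPM in DMut, against 86.9, 501 and 443 CPM in mafba, 272, 57.2 and 288 CPM in mafbb and 428, 254 and 1011 CPM in sib. Its departure was -11.47 ± 1.38 (SE, adjusted p = 8.83e-05, edgeR), or -11.90 from the means (95% interval -17.20 to -9.42), and with limma voom it did not pass (adjusted p = 0.135). The mafbb difference from sib was -1.46 ± 0.76 (adjusted p = 0.279), and on the linear scale the departure was 14.8 ± 273 CPM, of the opposite sign.

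The remaining called genes with 0 counts in DMut differed in how the single mutants stood. The selenoprotein P gene selenop (ENSDARG00000093549), a selenium carrier, had 0 counts in DMut, against 1463, 4152 and 386 CPM in mafba, 1294, 583 and 1554 CPM in mafbb and 2304, 2014 and 2356 CPM in sib. Its departure was -13.35 or lower (adjusted p = 0.0334, edgeR), and it passed in 4 of the 12 fits that left out a tube. PCBD1 (ENSDARG00000031981), a dehydratase of tetrahydrobiopterin recycling, had 0 counts in DMut, against 83.9, 337 and 24.7 CPM in mafba, 110, 86.3 and 3.53 CPM in mafbb and 587, 552 and 535 CPM in sib. Here every single-mutant tube lay below every sib tube. The single mutants stood at -1.91 ± 1.04 (mafba) and -3.07 ± 1.09 (mafbb) from sib on the log2 scale, with adjusted p of 0.716 and 0.263. The bound on the PCBD1 departure was -7.49 (adjusted p = 0.0392, edgeR), yet on the linear scale the departure was 343 ± 102 CPM, because both single losses together already exceeded the sib level. The call passed in 16 of 23 alternative fits.

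The inflammasome adaptor gene pycard (ENSDARG00000040076), whose product ASC joins sensors to caspase, was called lower. It had 78.4, 95.1 and 149 CPM in DMut, against 483, 850 and 398 CPM in mafba, 683, 440 and 1305 CPM in mafbb and 429, 216 and 453 CPM in sib. All 3 DMut tubes lay below the other 9, and 4 of the single-mutant tubes lay above every sib tube. DMut was lower than mafba by -2.43 ± 0.48 (adjusted p = 0.00435) and lower than mafbb by -2.91 ± 0.49 (adjusted p = 0.000369, edgeR), and differed from sib by -1.77 ± 0.47, which did not pass (adjusted p = 0.0582). The single mutants stood at 0.66 ± 0.46 (mafba, adjusted p = 1) and 1.15 ± 0.46 (mafbb, adjusted p = 0.263) from sib and did not pass either. The departure was -3.57 ± 0.66 (SE, adjusted p = 0.0033, edgeR), with adjusted p of 0.149 without mafba replicate 2 and mafbb replicate 3 and of 0.498 with DESeq2.

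The one member above the sum was ACP5 (ENSDARG00000019763), tartrate-resistant acid phosphatase, a lysosomal enzyme best known from osteoclasts. It had 796, 1953 and 732 CPM in DMut, against 202, 23.2 and 241 CPM in mafba, 62.4, 59.5 and 62.0 CPM in mafbb and 191, 77.0 and 107 CPM in sib. DMut lay above all other tubes, and the mafbb tubes were all under the sib tubes. DMut was 7.47-fold higher than mafba, 18.9-fold higher than mafbb and 9.30-fold higher than sib by mean CPM. The departure was 3.93 ± 0.84 (SE, adjusted p = 0.0334, edgeR), and it passed in 9 of 23 alternative fits and in 5 of the 12 that left out a tube; the adjusted p was 0.0859 with DESeq2 size factors and 0.469 with the DESeq2 test.

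**Figure D2:**
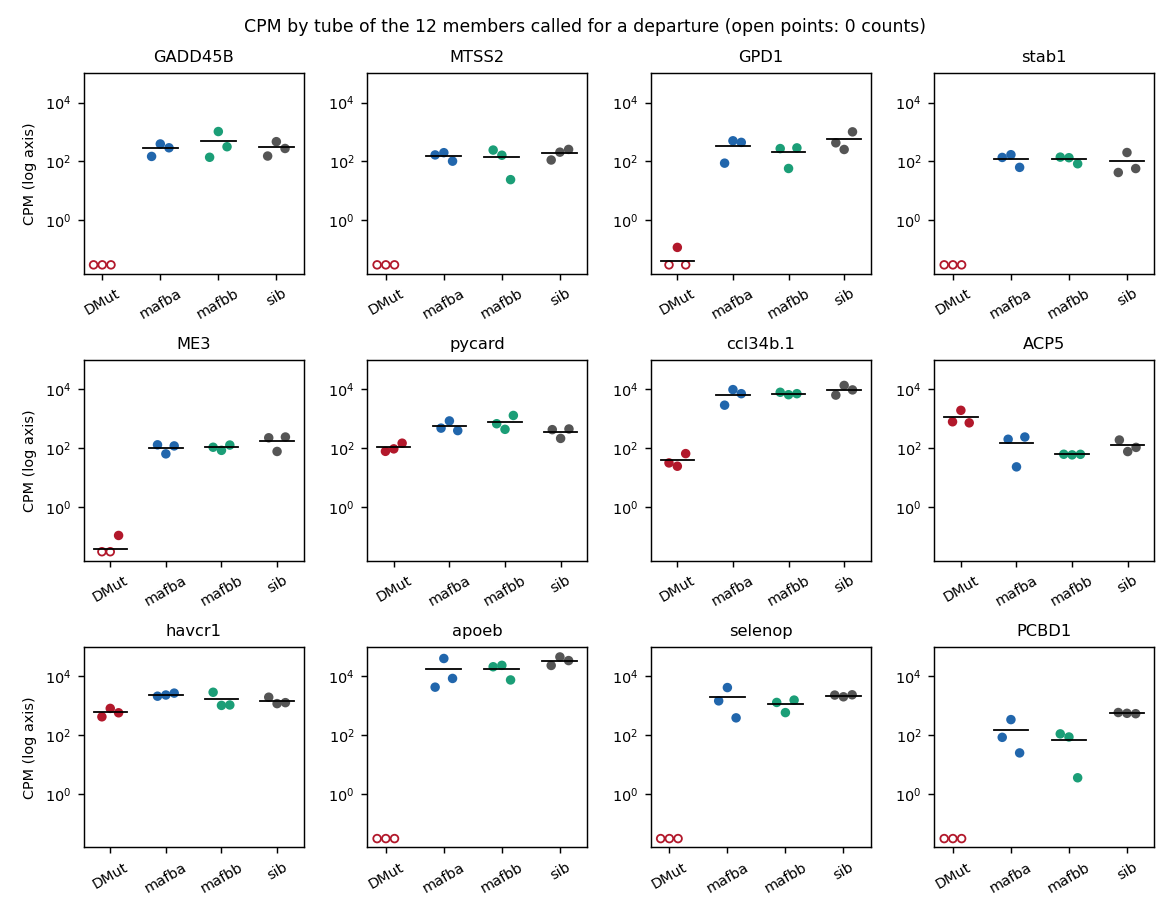
Each panel shows 1 of the 12 called members, with CPM on a log axis for the 3 tubes each of DMut, mafba, mafbb and sib. Filled points are tubes with a count, open points at the bottom are tubes with 0 counts, and bars are group means above 0. The DMut points lie below the other 9 tubes in 11 panels and above them in the ACP5 panel.

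By a cutoff of 1 on the log2 scale, most called genes stood apart in DMut alone. A member was placed by its log2 differences from sib. Of the 11 genes called lower, 8 had both single mutants within 1 of sib and DMut beyond 1. The other 3 (GPD1, pycard and PCBD1) had a single mutant beyond 1 as well, as did ACP5. Some of the 8 lay near the cutoff, apoeb at -0.96 in mafba and -0.98 in mafbb, selenop at -0.96 in mafbb and havcr1 at -1.29 in DMut. Over all members this layout of DMut alone was seen for 185 with a departure below 0 and 92 above. Single mutants moved alone, with DMut within 1 of sib, for 140 below and 103 above. These layouts were counted over the members only, and the rule leaves DMut free, so the 185 against 92 is no result about the members. For 855 members no group was beyond 1. In CPM, the 3 DMut tubes all lay below the other 9 for 84 members (5.26%) and all above them for 57 (3.57%). The shares of all genes tested were 0.998% and 2.74%. A gene with 0 counts in any of the other 9 tubes cannot have DMut below all of them. The rule excludes such genes from the members, so the higher share below is no result about them.

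The differences that make up the departure share tubes and are set side by side here. Against mafba, DMut was called lower for 28 members and higher for 3 (RASGEF1B, ACP5 and rcan1a), where 0.336% and 0.063% of all genes tested were called. Against mafbb the counts were 28 and 13, with 0.347% and 0.378% of all genes. Against sib they were 37 and 18, with 0.462% and 0.252%. Of the members, 1.75% were lower and 0.188% higher against mafba, 1.75% and 0.815% against mafbb, and 2.32% and 1.13% against sib. The rule requires counts in every mafba, mafbb and sib tube and leaves DMut free. It keeps genes lost in DMut and excludes genes absent from the other tubes but present in DMut. The larger member shares called lower, and their excess over higher calls, are therefore no result about the members. For mafba against sib 0 members were called in either direction by edgeR, as for all genes tested (0%), with 16 lower and 38 higher at an unadjusted p under 0.05, where the shares of all genes tested were 2.02% and 5.8%. DESeq2 also called 0 in either direction, and limma voom 3 lower (GLUL, CTSB and NPC2) and 1 higher (PSAP, whose mean CPM was lower in mafba than in sib). For mafbb against sib 1 member was called lower and 1 higher, with 0.0525% and 0.021% of all genes. The lower one was PSAP, described with the lysosomal genes, and the higher one si:ch211-265g21.1, named, like CTSB, after its values were seen.

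Among members with 0 counts in all DMut tubes, 6 were called and 5 did not pass with edgeR, although DESeq2 called 4 of those 5 (apoc1, lgals3bp.1, BZW2 and slc12a2) and edgeR with robust=FALSE 3 (apoc1, lgals3bp.1 and BZW2). Over all genes tested 6.38% had 0 counts in DMut. The apolipoprotein gene apoc1 (ENSDARG00000092170) had 0 counts in DMut, against 545, 5481 and 1054 CPM in mafba, 2220, 1748 and 537 CPM in mafbb and 2122, 4635 and 5276 CPM in sib, and its bound was -13.13 (adjusted p = 0.0746, edgeR). The other four, named after their values were seen, were the galectin-3-binding protein gene lgals3bp.1 (bound -12.14, adjusted p = 0.0851), BZW2 (bound -10.83, adjusted p = 0.0851), the cation-chloride cotransporter gene slc12a2 (bound -8.70, adjusted p = 0.259) and CCDC127 (bound -5.26, adjusted p = 0.382).

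For positive departures the next genes by p also failed to pass in the main fit, but some passed in alternative fits. PDCD4 and CEBPA passed with spike-in scaling and with the replicate number as a block. CEBPA also passed with no filter on low counts and without mafbb replicate 2, mafbb replicate 3, DMut replicate 1 or DMut replicate 3. RASGEF1B passed with the replicate block and without mafbb replicate 3. The translation inhibitor gene PDCD4 had 1170, 844 and 1128 CPM in DMut, against 433, 629 and 384 CPM in mafba, 285, 209 and 96.4 CPM in mafbb and 338, 320 and 758 CPM in sib, a departure of 2.38 ± 0.61 (adjusted p = 0.0851, edgeR). All 3 DMut tubes lay above the other 9. The myeloid transcription factor gene CEBPA had 443, 1240 and 1841 CPM in DMut, against 475, 244 and 542 CPM in mafba, 30.7, 107 and 10.8 CPM in mafbb and 365, 255 and 407 CPM in sib, with a departure of 4.27 ± 1.0 (adjusted p = 0.159) made of 1.78 ± 0.70 in DMut, 0.30 ± 0.68 in mafba and -2.79 ± 0.73 in mafbb from sib. The calcineurin regulator gene rcan1a had 739, 898 and 785 CPM in DMut, against 211, 194 and 138 CPM in mafba, 191, 209 and 122 CPM in mafbb and 317, 99.9 and 179 CPM in sib, a departure of 2.35 ± 0.71 (adjusted p = 0.259). DMut was 4.46-fold, 4.64-fold and 4.07-fold higher than mafba, mafbb and sib, and each of these differences passed by itself (adjusted p of 0.0356, 0.0226 and 0.0437, edgeR). RASGEF1B, a Ras exchange factor gene, differed in having only mafba low, 310 ± 92.7 CPM against 1376 ± 632 in DMut, 1061 ± 769 in mafbb and 823 ± 70.6 in sib (SD, n = 3 each), with a departure of 1.78 ± 0.57 (adjusted p = 0.259).

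Gene lists were read by their counts and by their median beside that of all members. Over all members 0.689% were called lower and 0.0627% higher, and the lists were chosen with earlier results of these data known. The scaling moves every median together: that of all genes tested was 0.31 with TMM, 0.29 with DESeq2 size factors, 0.19 with library size alone, -0.16 with TMMwsp and 1.5 with spike-ins. With TMMwsp the median of every list with at least 6 members but the V-ATPase was below 0, and with spike-ins that of every such list but the solute carriers and the cell cycle genes was above 0. The main lists are therefore also given as a difference from the members' median, which shifts with the scaling in the same way. The members' median was -0.23 with TMM, -0.264 with DESeq2 size factors and -0.375 with library size alone. With TMMwsp it was -0.751 and with spike-ins 1.11. Genes with 0 counts in DMut rank lowest in their lists, so setting them at their bounds leaves the medians as they are.

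Microglial genes gave 3 of the 11 lower calls. Of 19 members on that list 17 had a departure below 0, 3 were called lower (apoeb, ccl34b.1 and havcr1) and 0 higher, and the median was -0.94, or -0.71 from the members' median, which was between -0.67 and -0.74 in the other scalings and without mafba replicate 2 and mafbb replicate 3. With spike-in scaling the list median itself was 0.38, and 11 of the 19 were above 0. The transport protein gene slco2b1 had 0, 0 and 4.29 CPM in DMut, against 296, 213 and 163 CPM in mafba, 68.9, 148 and 59.7 CPM in mafbb and 258, 198 and 465 CPM in sib, with a departure of -5.55 ± 2.00 (adjusted p = 0.338, edgeR). The list was not uniform: the Csf1 receptor genes csf1ra and csf1rb had departures of -0.21 and -0.14, and the cathepsin S gene ctss2.1 lay at 3.17 ± 1.31 (adjusted p = 0.382) with 2133, 4038 and 3261 CPM in DMut, 104, 622 and 967 CPM in mafba, 258, 223 and 1380 CPM in mafbb and 585, 1352 and 1067 CPM in sib. Pan-leukocyte genes stood on the other side of the members' median, with 14 of 20 above 0, 0 called and a median of 0.33, or 0.56 from the members' median; with TMMwsp 8 of the 20 were above 0, and without mafba replicate 2 and mafbb replicate 3 the difference from the members' median was 0.27. The actin-binding gene CORO1A lay at 0.88 ± 0.44 and the NADPH oxidase gene cybb at 1.63 ± 0.99, and neither passed (adjusted p of 0.382 and 0.447).

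Efferocytosis genes gave 2 calls and transporter genes 0. The efferocytosis and complement list had 11 members, and no complement C1q gene was among them. Of these 11, 7 were below 0 and 2 were called lower (stab1 and havcr1), with a median of -1.28 that was 0.17 with spike-in scaling. Of 11 solute carriers 7 were below 0 and 0 were called, with a median of -1.18, against -0.06 over the 18 tested genes of the list. The phagosome sugar-phosphate transporter gene SLC37A2, needed in zebrafish microglia to shrink phagosomes, had 125, 135 and 130 CPM in DMut, against 886, 1474 and 707 CPM in mafba, 210, 441 and 318 CPM in mafbb and 1066, 766 and 1023 CPM in sib. Its level in mafbb was already low, at -1.56 ± 0.40 from sib (adjusted p = 0.121), and the departure of -1.42 ± 0.55 did not pass (adjusted p = 0.318, edgeR). The amino acid transporter chain slc3a2a had 119, 180 and 167 CPM in DMut, against 597, 1758 and 866 CPM in mafba, 1021, 589 and 318 CPM in mafbb and 1272, 1322 and 1170 CPM in sib. DMut was lower than sib (-3.01 ± 0.42 on the log2 scale, adjusted p = 9.11e-06), and the departure of -1.82 ± 0.55 did not pass (adjusted p = 0.259). Its partner SLC7A7 lay at -1.18 ± 0.53 (adjusted p = 0.381) and the lysosomal membrane protein gene SLC35F6 at -1.65 ± 0.61 (adjusted p = 0.295). Without mafba replicate 2 and mafbb replicate 3 the solute carrier median was -0.20.

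Among lysosomal genes there was 1 call. Of 32 cathepsins and hydrolases 18 were below 0 and 14 above, with a median of -0.17, 0 called lower and 1 (ACP5) higher; without mafba replicate 2 and mafbb replicate 3 the median was 0.37 with 21 above 0, and over the 47 tested genes of the list it was 0.17. Prosaposin, whose gene PSAP activates sphingolipid hydrolases, had 1846, 2137 and 1796 CPM in DMut, against 4809, 10553 and 8782 CPM in mafba, 3981, 4545 and 5163 CPM in mafbb and 12523, 7768 and 10619 CPM in sib. It fell in DMut against sib (-2.42 ± 0.23, adjusted p = 6.86e-10) and in mafbb against sib (-1.18 ± 0.22, adjusted p = 0.0122), and its departure of -0.89 ± 0.31 did not pass (adjusted p = 0.259, edgeR). The gene of the cholesterol-binding protein NPC2 lay at -0.92 ± 0.50 (adjusted p = 0.407), and that of the thioesterase PPT1 at -1.45 ± 0.57 (adjusted p = 0.337), while cd68, a lysosomal membrane protein gene, lay at 1.01 ± 0.40 (adjusted p = 0.326). Of 16 members encoding the proton pump V-ATPase, which acidifies lysosomes, 15 were above 0, 0 were called and the median was 0.72, or 0.95 from the members' median; with TMMwsp 10 of the 16 were above 0. Its membrane subunit gene ATP6V0C had 2236, 3369 and 4485 CPM in DMut, against 1694, 1288 and 1955 CPM in mafba, 1153, 911 and 1013 CPM in mafbb and 1003, 1182 and 858 CPM in sib, with a departure of 1.01 ± 0.40 (adjusted p = 0.326). The summed share of V-ATPase transcripts was 1.23 ± 0.15% in DMut, 0.972 ± 0.0373% in mafba, 0.792 ± 0.184% in mafbb and 0.961 ± 0.108% in sib (SD, n = 3 each).

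Energy metabolism gave 2 calls, both lower. All 13 mitochondrially encoded members were below 0, with a median of -0.70 and 0 called, but with spike-in scaling 12 of them were above 0. Their median differences from sib were 0.14 in DMut, 0.47 in mafba and 0.54 in mafbb. MT-ND5, of respiratory complex I, had 460, 1117 and 1014 CPM in DMut, against 1725, 1272 and 1379 CPM in mafba, 1003, 1403 and 1104 CPM in mafbb and 734, 807 and 869 CPM in sib, with every single-mutant tube above every sib tube and a departure of -1.30 ± 0.46 (adjusted p = 0.259, edgeR). Nuclear genes of the respiratory chain had 48 of 59 members below 0, 0 called and a median of -0.59 (0.78 with spike-in scaling), and 28 of 59 below 0 with a median of 0.05 without mafba replicate 2 and mafbb replicate 3. Among 32 enzymes of glycolysis, the TCA cycle and glutamate handling, 15 were below 0 and 17 above, 2 were called lower (GPD1 and ME3) and the median was 0.06, which was -0.07 with library size alone, -0.45 with TMMwsp and 0.61 over the 51 tested genes of the list. Glutamate dehydrogenase, gene glud1a, had 46.3, 103 and 105 CPM in DMut, against 509, 1078 and 443 CPM in mafba, 527, 494 and 332 CPM in mafbb and 1206, 847 and 1465 CPM in sib. DMut was 13.9-fold lower than sib by mean CPM (adjusted p = 4.47e-07), the means of both single mutants lay between those of DMut and sib, and the departure was -1.62 ± 0.58 (adjusted p = 0.26). Glutamine synthetase, under the symbol GLUL and the ID ENSDARG00000099776, had 0, 58.7 and 0 CPM in DMut, against 2559, 9203 and 2642 CPM in mafba, 2718, 1479 and 2242 CPM in mafbb and 5412, 3850 and 9451 CPM in sib, and did not pass with a departure of -6.40 ± 2.98 (adjusted p = 0.385). Another ID with this symbol, ENSDARG00000100003, was not a member. Radial glia express it as well. Of the 6 radial glia markers, 4 were at 0 in each of DMut, mafba and sib, and 3 in mafbb. Their summed share was 0.00891% to 0.0163% in DMut, 0.258% to 0.804% in mafba, 0.166% to 0.301% in mafbb and 0.354% to 0.936% in sib. Nearly all of it came from glutamine synthetase, which that share sums over both IDs. Together they had 4259 counts in DMut, in all 3 tubes, against 240083 in sib. In DMut replicates 1 and 3 these counts came from ENSDARG00000100003 alone, so glutamine synthetase was not absent there. The part of the radial glia markers in the result was not tested.

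**Figure D3:**
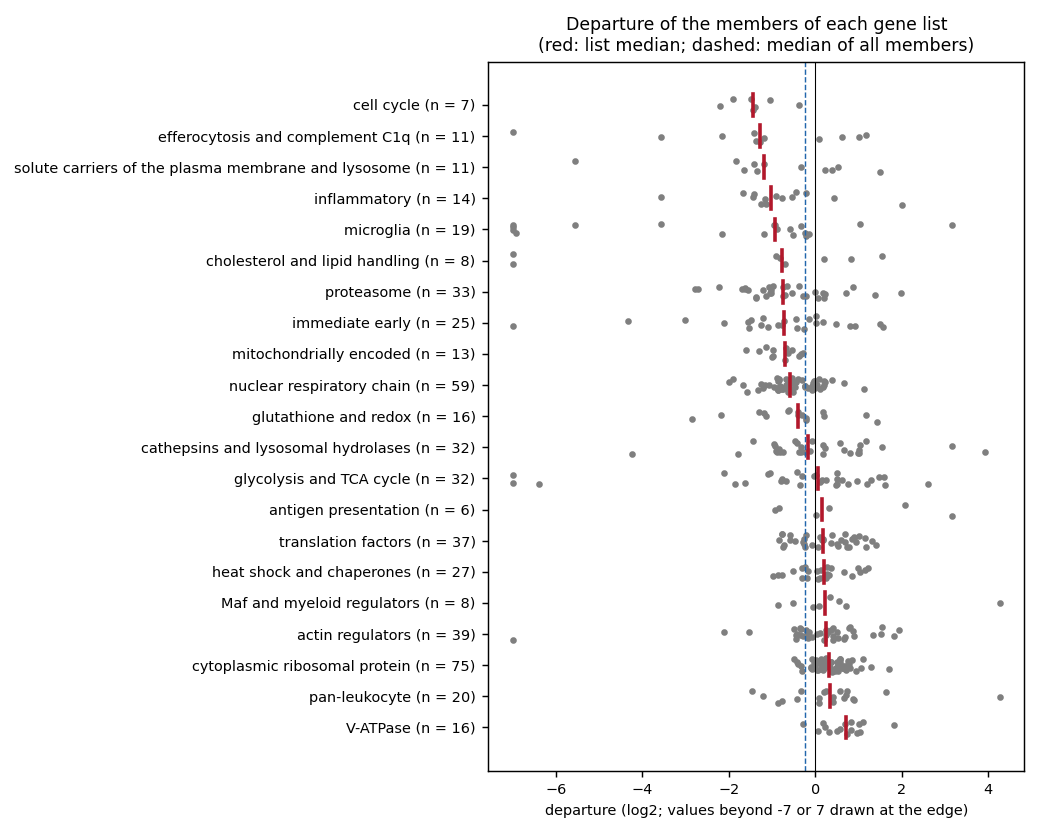
Departures of the members of each gene list with at least 6 members, on the log2 scale, 1 point per member, with values beyond -7 or 7 drawn at the edge. Red bars are list medians and the dashed line is the median of all members, -0.23; with TMM scaling the lists run from cell cycle genes at -1.44 to the V-ATPase at 0.72, and TMMwsp or spike-in scaling turns the sign of many of them.

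With TMM scaling, inflammatory and immediate early genes were more often below 0 than above, as were all members (933 of 1596 below 0). On each list 1 was called. Of 14 inflammatory members 12 were below 0, pycard was called and the median was -1.02, which was 0.33 with spike-in scaling, -0.40 without mafba replicate 2 and mafbb replicate 3, and -0.15 over the 36 tested genes of the list. Of 25 immediate early members 17 were below 0, GADD45B was called and the median was -0.73 (0.75 with spike-in scaling, where 20 were above 0). Without mafba replicate 2 and mafbb replicate 3, 15 of the 25 were below 0. From the members' median the inflammatory median lay at -0.79 and the immediate early median at -0.50. The transcription factor gene JUNB (ENSDARG00000074378) had 198, 167 and 107 CPM in DMut, against 262, 546 and 488 CPM in mafba, 375, 883 and 456 CPM in mafbb and 750, 504 and 730 CPM in sib; it was called lower in DMut against sib (-2.07 ± 0.46, adjusted p = 0.0119), and its departure of -1.25 ± 0.63 did not pass (adjusted p = 0.383, edgeR). On the positive side the survival factor gene mcl1b lay at 1.55 ± 0.65 (adjusted p = 0.367).

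Housekeeping lists had 0 calls. All 7 cell cycle members were below 0 with a median of -1.44, but HMGB2 and tubb2b, the members with the smallest p, were high in mafba replicate 2 alone: HMGB2, a chromatin protein gene, had 344, 331 and 384 CPM in DMut, against 598, 2270 and 212 CPM in mafba, 389, 484 and 487 CPM in mafbb and 253, 557 and 241 CPM in sib. Without mafba replicate 2 and mafbb replicate 3 the median was -0.38 and 5 of 7 were below 0. The 33 proteasome members had a median of -0.75, or -0.21 without those tubes and 0.61 with spike-in scaling. Of 75 ribosomal protein members 64 were above 0, with a median of 0.32, and under TMMwsp 22 were. Among 27 chaperones the median was 0.19 (-0.34 with TMMwsp) and among 37 translation factors 0.18 (-0.34 with TMMwsp). The chaperone gene HSP90AB1 had 4205, 6881 and 7123 CPM in DMut, against 3003, 3445 and 3524 CPM in mafba, 3844, 1866 and 2307 CPM in mafbb and 2546, 3252 and 2904 CPM in sib, and the elongation factor gene eef1a1l1 7476, 10660 and 12547 CPM in DMut, against 5039, 2879 and 6126 CPM in mafba, 3483, 3795 and 5331 CPM in mafbb and 2734, 4983 and 3009 CPM in sib. Both were called higher in DMut against sib (1.07 ± 0.25 and 1.52 ± 0.28, adjusted p of 0.016 and 0.00753, edgeR), while their departures of 0.99 ± 0.34 and 0.89 ± 0.39 did not pass (adjusted p of 0.259 and 0.382). The remaining lists had medians of 0.24 (39 actin regulators, 1 called lower), -0.40 (16 glutathione and redox genes; 0.014 without those tubes), -0.76 (8 cholesterol and lipid genes, 1 called lower; -0.31 without those tubes and 0.57 over the 25 tested genes of the list), 0.16 (6 antigen presentation genes; -0.14 over the 10 tested genes of the list) and 0.22 (8 Maf and myeloid regulators; 0.82 over the 32 tested genes of the list), and the neutrophil and erythroid lists held 1 member each, at 1.75 and -0.91, that did not pass.

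Outside the rule, 8 genes with fewer than 10 counts in at least 1 of the 9 tubes were called for a departure, 7 higher and 1 lower (ppp2r2ab, a phosphatase subunit gene), and each had 0 counts in at least 1 of those tubes.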

How the data were processed

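The deposited table gives raw read counts of each gene in each of the 12 tubes, not normalized by the authors, as its whole-number values show. The submitters' processing notes name Trim Galore, STAR and the build GRCz11 (danRer11). Versions, counting tool, annotation release and strand setting were not stated in any source used. Gene symbols come from a supplied table by Ensembl ID, 1547 members had one and 186 shared it with another ID, and capitals stand for the zebrafish gene. The level of the other mutated gene is not reported here. No positions or sequences were used.

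In R 4.3.3, edgeR 4.0.16 fitted 1 quasi-likelihood model (robust=TRUE) with a term per genotype to all 12 tubes, after filterByExpr (minimum count 10, minimum total 15) and TMM scaling, without the 92 ERCC spike-ins. p-values were adjusted by Benjamini-Hochberg over 9519 genes, and an adjusted p under 0.05 was called. The SE of a log2 difference or departure was its absolute value divided by the square root of its F statistic, not an SE reported by the fit. The common dispersion was 4. The floor of 3 counts over a group equals 0.0985 CPM in DMut, 0.0678 in mafba, 0.0703 in mafbb and 0.0801 in sib. Alternatives used limma 3.58.1, DESeq2 1.42.0, other scalings, filters and membership rules, and left out each tube. Scripts were tested on simulated data, with recovery required only at a dispersion far below that of these data. That test therefore does not show how many departures this design can detect.

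The members and the 27 gene lists were chosen with earlier results of these data known. Named genes were mafbb, the called members, up to 5 of smallest p per direction, and per list up to 4 of smallest p and the most abundant in sib.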

Additional observations from a re-analysis of the deposited data

Results flagged for a closer look

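The departure tests whether the difference made by one lost gene changes when the other is lost too, so every called member is a case in which the difference itself was tested. The bounds on the departure were -16.48 for apoeb, -13.35 for selenop, -12.19 for GADD45B, -10.53 for stab1, -10.20 for MTSS2 and -7.49 for PCBD1, all at 0 counts in the 3 DMut tubes. With 1 DMut count in total, the fitted departures were -11.47 for GPD1 and -10.46 for ME3. For genes that DMut still expressed they were -6.91 for ccl34b.1, -3.57 for pycard and -2.15 for havcr1, and 3.93 for ACP5. These departures hold on the log2 scale. On the linear CPM scale (± SE) they were -3970 ± 2956 for ccl34b.1, -920 ± 1162 for selenop and -474 ± 298 for GADD45B. They were -107 ± 81.6 for MTSS2, -30.1 ± 57.6 for ME3 and -141 ± 62.1 for stab1. For havcr1, pycard and ACP5 they were -1954 ± 687, -913 ± 303 and 1068 ± 404. The linear values of apoeb, GPD1 and PCBD1 are given with those genes. The cause of these departures was not tested.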

How the results depend on the processing

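Of 11 members called lower and 1 higher, the counts under other settings were as follows. Lower calls numbered 24 with no filter on low counts, 6 with limma voom, 3 with 10 counts required in all 12 tubes, and 3 with no minimum in sib, in mafba or in mafbb; leaving out 1 tube gave 7 to 14, with the 7 without sib replicate 3. Higher calls numbered 0 with DESeq2 size factors, TMMwsp, library size alone, CPM above 10 in 3 tubes, robust=FALSE and DESeq2, 8 with spike-in scaling, 4 with no filter, 5 with no minimum in mafbb, 2 without mafba replicate 2 and mafbb replicate 3, and 0 to 4 with 1 tube left out, with the 4 without mafbb replicate 3. No pairing of tubes by replicate number was seen, as 0 of 18 same-number correlations passed 0.1 (-0.0799 to 0.0683). With so wide a spread between tubes, low correlations cannot exclude that same-number tubes were handled together. With the number as a replicate block 21 were called lower and 10 higher, sharing 10 of the 12 calls (apoeb and selenop not shared).

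DMut lay below the other 9 tubes for 84 members, 32 with spike-in scaling and 90 to 131 with 1 tube left out (131 without DMut replicate 3), and above for 57, 29 with TMMwsp, 37 with library size alone, 25 with spike-in scaling, 91 without mafba replicate 2 and mafbb replicate 3 and 53 to 94 with 1 tube left out (86 without mafbb replicate 3, 94 without DMut replicate 1, 88 without DMut replicate 2). With a tube left out, fewer tubes have to lie apart. The condition is then easier to meet, so those counts do not compare directly with 84 and 57. Signs turned with spike-in scaling for laptm5 (0.12), PSAP (0.25), PPT1 (0.11), MT-ND5 (0.0767), MT-CO2 (0.67), NPC2 (0.12) and gstp1.2 (0.26), without mafba replicate 2 and mafbb replicate 3 for NPC2 (0.045, with the fits that leave tubes out running from -1.21 to 0.045), and on the linear CPM scale for GPD1 (14.8) and PCBD1 (343). The cause was not tested.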
